A study of Rattus norvegicus with 3 samples.

Results

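Galectins and annexins are families of proteins that bind sugars and membranes, and 10 of their genes were followed here: the galectin genes Lgals1, Lgals3 and Lgals9, with Lgals3bp, the gene of a galectin-binding protein, and Anxa1 to Anxa6 of the annexins. Lgals3bp encodes no galectin and is counted with the galectin family for short. They were taken by gene symbol from the 30957 genes of the deposited tables, each symbol stood on 1 row, and all 10 had a mean of 1 FPKM or more (fragments per kilobase of gene per 1000000 fragments). The libraries hold motor cortex mRNA of 3 Sprague-Dawley males, rats 19, 35 and 70, which had undergone cerebral ischemia and reperfusion, in which the blood supply of the brain is interrupted and then restored. The label of 8 weeks that all 3 carry may be an age or a time after the operation. They form 1 group, no control group was analysed here, and the comparison the design allows is between the rats. Values of 3 rats are given in the order 19, 35 and 70.

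Galectins are lectins that bind galactose-containing sugar chains of glycoproteins. They are made in the cytosol, leave the cell without a signal peptide and link glycoproteins at the cell surface, and some also gather on damaged lysosomes. Annexins bind acidic phospholipids of membranes when calcium rises and take part in membrane repair, vesicle traffic and the clearance of dying cells. In the injured brain, members of both families are known from activated microglia, invading macrophages, reactive astrocytes and cells of vessels and meninges.

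The libraries were alike in depth but not in their mitochondrial share or their cell type markers. Genes of the mitochondrial chromosome held 31.7%, 19.0% and 26.2% of the summed FPKM. Steps in the low values gave an effective depth of 15561621, 16460583 and 16049597 fragments. Rat 35 stood apart: 12 of 12 neuron genes were lowest there, and their summed FPKM was 1648, 74.3 and 2373, so that the defining markers of neurons in cortex were scarce in this library. Of 14 microglia and macrophage genes, 14 were highest in rat 35 (summed FPKM 1672, 4597 and 1371), and of 9 measured fibroblast genes, 9 were highest there (413, 3357 and 331), with Col1a2 listed at 0 in every rat. Endothelial genes were highest in rat 35 for 7 of 7 (165, 339 and 138), astrocyte genes were lowest there for 7 of 9 (3238, 1047 and 2199.95), and oligodendrocyte genes summed to 4318, 3619 and 5675. Only 3 of 10 neutrophil and lymphocyte genes reached a mean of 1 FPKM (summed FPKM of all 10 genes 4.28, 122.6 and 4.71). Among all genes with a mean of 1 FPKM or more, 45.4% were highest in rat 35. Their lowest value lay in rat 70 for 44.2%, in rat 19 for 19.3% and in rat 35 for the rest. In whole tissue, fewer cells of a type and less RNA per cell cannot be told apart. The part of these markers in the results that follow was not tested.

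Transcripts of 9 of the 10 genes were highest in rat 35, and the exception was Lgals9. Over all 14134 genes with a mean of 1 FPKM or more, 45.4% were highest in that rat. The lowest value lay in rat 70 for 9 of 10, the exception being Anxa6, against 44.2% of all genes, and the order 35 above 19 above 70 was found in 8 of 10, against 33.6%. The highest and the lowest rat were over 2-fold apart on the log2(FPKM + 1) scale for 10 of 10, against 42.5%, and 8 of 10 were over 2-fold higher in rat 35 than in each other rat, against 10.3%. Against single rats, on the same scale, 8 of 10 were over 2-fold higher in rat 35 than in rat 19 (11.7% of all genes) and 9 of 10 than in rat 70 (19.9%). The median range, highest minus lowest log2(FPKM + 1), was 2.69 over the 4 galectin family genes and 2.38 over the 6 annexins, beside 0.86 over all genes. Over the galectins without Lgals3bp the median range was that of Lgals3, 3.17. Without rat 35, 3 of 10 were over 2-fold apart on the same scale (Lgals3bp, Lgals9 and Anxa3), all 3 higher in rat 19 than in rat 70, against 6.11% of all genes in that direction, and the median ranges of the galectin family and the annexins went to 0.90 and 0.69, beside a median of 0.37 over all genes.

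**Figure D1:**
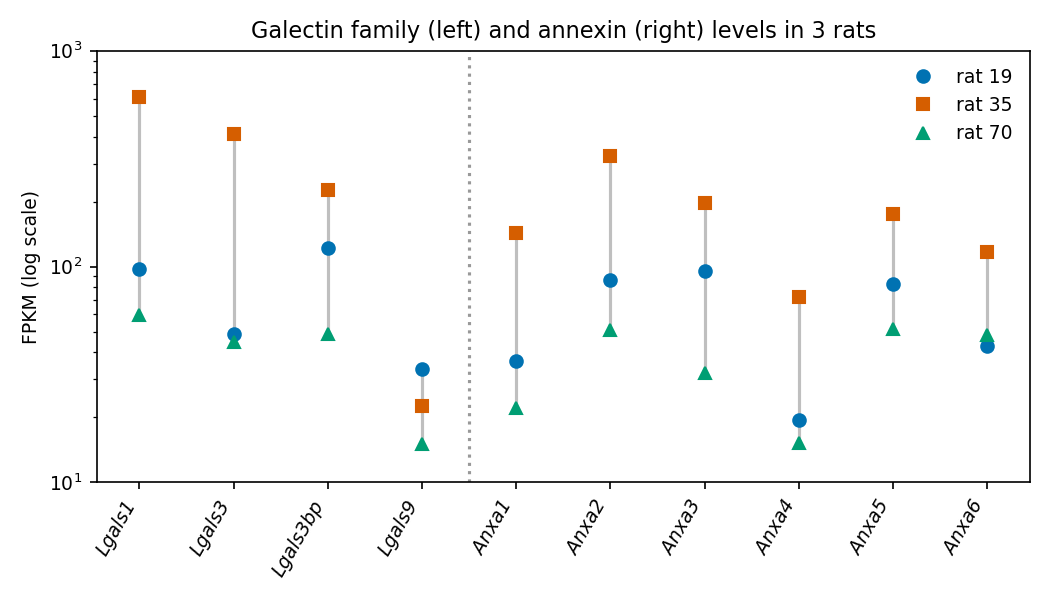
FPKM (log axis) of the 4 galectin family genes and the 6 annexins in rats 19 (circles), 35 (squares) and 70 (triangles), 1 point per rat, with a grey line from the lowest to the highest. Rat 35 is on top for every gene but Lgals9, where rat 19 is at 33.5 and rat 35 at 22.5.

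Of the galectins, Lgals1 had the highest mean. It encodes galectin-1, a small lectin that works as a dimer (ENSRNOG00000009884, chromosome 7, 120153184 to 120156289, plus strand, Rnor 6.0). Its level was 97.3, 611 and 59.6 FPKM (256 ± 308, SD, n = 3). This was 6.28-fold higher in rat 35 than in rat 19 and 10.3-fold higher than in rat 70. By level it stood at place 653, 78 and 1192 among the 14134 genes. Of these genes, 96.7% had a smaller range than Lgals1.

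Lgals3 encodes galectin-3, which carries a collagen-like tail through which it self-associates and is made by activated phagocytes (ENSRNOG00000010645, chromosome 15, 24141651 to 24165537, plus strand). It was at 48.5, 410 and 44.7 FPKM (168 ± 210, SD, n = 3), at place 1570, 138 and 1720 among all genes. Rats 19 and 70 were close: their values rest on 1405 and 1337 fragments, and the exact 95% Poisson intervals, 45.96 to 51.1 and 42.4 to 47.2, overlap. These intervals cover counting error only. After rescaling to a common sum or by the median of ratios, rat 70 was above rat 19 for Lgals3, while the other 9 genes kept their order of rats. The ratio of Lgals3 to Lgals1 within a rat was 0.498, 0.67 and 0.75, a 1.51-fold range, so the levels of these genes were far less apart in proportion than in size.

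Lgals3bp, which encodes a secreted glycoprotein that binds galectin-3, had a smaller range (ENSRNOG00000003217, chromosome 10, 107415326 to 107424710, minus strand). It was at 121.7, 227 and 48.6 FPKM (132.6 ± 89.9, SD, n = 3). Rats 19 and 35 were 1.87-fold apart and rats 19 and 70 were 2.50-fold apart, so that here rat 19 lay nearer to rat 35. Within a rat, the ratio of Lgals3bp to Lgals3 was 2.51, 0.555 and 1.09: the binding protein had the higher level in rats 19 and 70 and the lower one in rat 35.

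Lgals9 had a different order of rats from the other 9 genes. It encodes galectin-9, whose 2 sugar-binding domains are joined by a linker and which is known as a ligand of the receptor encoded by Havcr2 (ENSRNOG00000012681, chromosome 10, 64737016 to 64760202, plus strand in the files). Its level was 33.5, 22.5 and 15.1 FPKM (23.7 ± 9.25, SD, n = 3), from 910, 647 and 423 fragments. The exact 95% Poisson intervals, 31.3 to 35.7, 20.8 to 24.3 and 13.7 to 16.6, do not overlap. Over all genes, 24.8% were highest in rat 19. The ratio of Lgals9 to Lgals3 was 0.69, 0.0549 and 0.337, which is a 12.6-fold range and places Lgals9 far below Lgals3 in rat 35. The highest to lowest range of Lgals9 was 1.0996 on the log2(FPKM + 1) scale, just over the 2-fold line, and came to 0.96 after rescaling to a common sum and to 0.97 by the median of ratios.

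**Figure D2:**
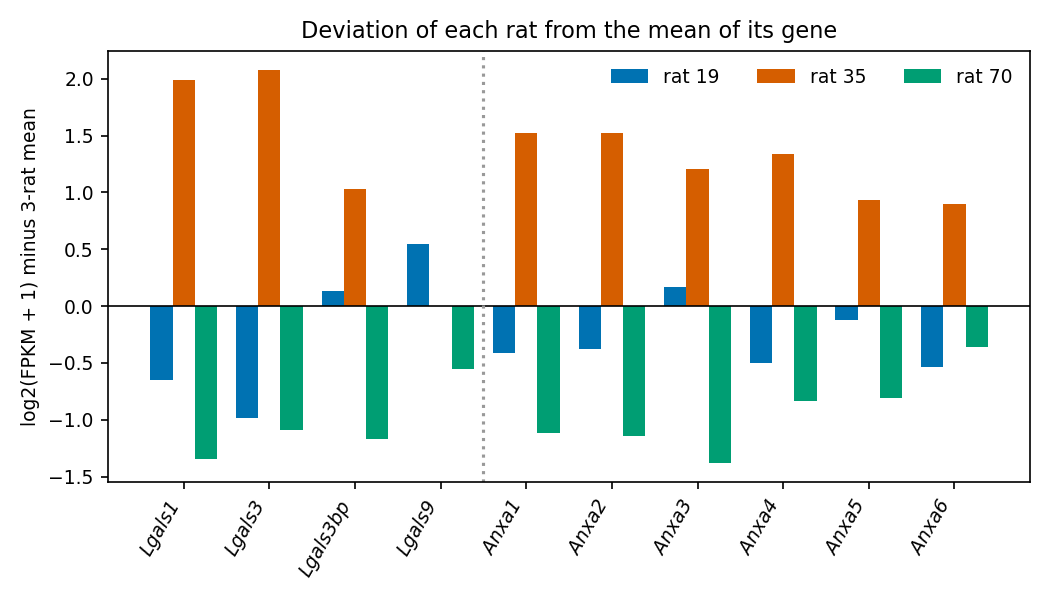
Bars give log2(FPKM + 1) of each rat minus the mean of the 3 rats, for each galectin family gene and annexin, with rats 19, 35 and 70 from left to right in each group of bars. The bars of rat 35 reach 2.07 for Lgals3 and 0.895 for Anxa6 and are near 0 for Lgals9 alone.

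All 6 annexins were highest in rat 35, by over 2-fold above each other rat on the log2(FPKM + 1) scale. Of the 6, Anxa3 led in rat 19, Anxa5 in rat 70 and Anxa2 in rat 35. The highest mean was that of Anxa2, whose protein forms a complex with S100a10 and gathers plasminogen and its activator at the cell surface (ENSRNOG00000010362, chromosome 8, 75687100 to 75723594, plus strand). Anxa2 was at 86.5, 327 and 50.6 FPKM (155 ± 150.2, SD, n = 3), 3.78-fold higher in rat 35 than in rat 19 and 6.46-fold higher than in rat 70. Anxa1, which encodes annexin A1, a ligand of formyl peptide receptors known for ending inflammation, was at 36.6, 143 and 22.1 FPKM (67.3 ± 66.1, SD, n = 3; ENSRNOG00000017469, chromosome 1, 237893966 to 237910012, minus strand). Its steps between rats were almost those of Anxa2, 3.91-fold from rat 19 to rat 35 and 6.47-fold from rat 70 to rat 35. The root mean square difference of their centred log2 profiles over 3 rats was 0.025, which placed the pair of Anxa1 and Anxa2 at place 1 of the 45 pairs among the 10 genes. The profiles least alike were those of Lgals3 and Lgals9, at 1.52.

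Promoter windows were looked at because Anxa1 and Anxa2 had nearly the same profile while Lgals9 had another. RefSeq windows of 300 bases, 250 before to 50 after the annotated start, were matched by symbol for 7 of the 10 genes (not for Lgals1, Lgals3 and Anxa6) in build GRCr8, which is not the build of the expression tables. Capitals mark matches, on either strand, to TATAAA (a core promoter box), GGGCGG (bound by Sp1), TGANTCA (bound by AP-1) or TTCNNNGAA (bound by STAT factors). Matches to different motifs do not overlap in these windows. The windows are chr1:227303683-227303982 on the minus strand, chr8:78986002-78986301 on the plus strand and chr10:64428021-64428320 on the minus strand, the last on the strand opposite to that of Lgals9 in the Rnor 6.0 tables.
Anxa1: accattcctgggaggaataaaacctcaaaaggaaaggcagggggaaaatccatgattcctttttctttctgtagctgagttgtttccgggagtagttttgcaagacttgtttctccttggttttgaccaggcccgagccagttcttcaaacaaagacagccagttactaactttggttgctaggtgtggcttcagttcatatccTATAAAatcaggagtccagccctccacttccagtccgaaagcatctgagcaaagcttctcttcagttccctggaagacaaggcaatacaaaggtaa
Anxa2: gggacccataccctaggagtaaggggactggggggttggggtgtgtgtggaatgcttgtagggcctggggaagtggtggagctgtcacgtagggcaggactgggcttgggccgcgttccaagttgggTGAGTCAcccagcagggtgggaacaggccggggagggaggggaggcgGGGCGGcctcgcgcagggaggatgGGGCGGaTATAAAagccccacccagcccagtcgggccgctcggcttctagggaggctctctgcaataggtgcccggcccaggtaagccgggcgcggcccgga
Lgals9: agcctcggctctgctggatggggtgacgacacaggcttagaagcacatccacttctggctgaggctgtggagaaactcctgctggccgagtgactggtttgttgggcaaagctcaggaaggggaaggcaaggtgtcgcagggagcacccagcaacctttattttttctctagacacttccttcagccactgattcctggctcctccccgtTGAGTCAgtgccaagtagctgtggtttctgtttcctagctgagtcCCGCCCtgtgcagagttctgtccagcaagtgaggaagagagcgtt
Anxa1 and Anxa2 each held 1 TATAAA, starting 46 and 45 bases before the start, and Lgals3bp held 2 overlapping ones, at 30 and 28 bases before it. Of all 33469 windows, 14.2% held this motif. GGGCGG was in 5 of 7 windows (Lgals9, Anxa2, Anxa3, Anxa4 and Anxa5) against 33.1% of all, TGANTCA in 2 of 7 (Lgals9 and Anxa2) against 7.33%, and TTCNNNGAA in 0 of 7 against 8.87%. The TGANTCA letters were thus in the windows of Anxa2 and Lgals9, and TATAAA in those of Anxa1, Anxa2 and Lgals3bp. These are matches of letters, not sites shown to be used, and their part in the profiles over the rats was not tested. The windows with GGGCGG (Lgals9, Anxa2, Anxa3, Anxa4 and Anxa5) were 55.3%, 68%, 65.3%, 62.3% and 64.3% G and C. Those of Lgals3bp and Anxa1 were at 54% and 45%, beside a median of 51.7% over all windows. The part of base content in the GGGCGG count was not tested.

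The other annexins had smaller steps from rat 19 to rat 35 than Anxa1 and Anxa2. Anxa4, a calcium-dependent membrane binder known best from secretory epithelia, was at 19.4, 72.3 and 15.2 FPKM (35.6 ± 31.8, SD, n = 3; ENSRNOG00000018159, chromosome 4, 118538777 to 118595580, minus strand) and was 3.73-fold higher in rat 35 than in rat 19. Anxa5, whose protein binds phosphatidylserine on dying cells, was at 83.3, 174.9 and 51.4 FPKM (103 ± 64.1, SD, n = 3; ENSRNOG00000014453, chromosome 2, 123162461 to 123193130, minus strand), a 2.10-fold step. Anxa3 was at 95.7, 197 and 32.0 FPKM (108 ± 83.1, SD, n = 3; ENSRNOG00000002045, chromosome 14, 14364008 to 14426437, minus strand). It was 2.06-fold higher in rat 35 than in rat 19 and 6.14-fold higher than in rat 70. Anxa3 also had the largest gap between rats 19 and 70 of the 10 genes, 2.99-fold. Its profile was close to that of Lgals3bp (root mean square difference 0.16, place 2 of 45 pairs).

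Anxa6 encodes the largest annexin, with a duplicated core (ENSRNOG00000010668, chromosome 10, 40320581 to 40375605, minus strand). Among the 6 annexins followed, it had the smallest gap between its highest and lowest rat. It was at 42.8, 117 and 48.4 FPKM (69.4 ± 41.3, SD, n = 3). It was lowest in rat 19, as were 19.3% of all genes, and the Poisson intervals of rats 19 and 70, 40.9 to 44.9 and 46.3 to 50.5, do not overlap. The row AC093965.1 overlaps Anxa6 on the opposite strand and was at 30.5, 50.05 and 24.9 FPKM. No source used here says whether the counting used strand, so fragments of these rows may not be told apart.

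Among the followed genes, the one with the lowest level in each family was the same in every rat, while the full order of those above it changed. FPKM is per length, so genes can be set side by side within a rat. Lgals9 had the lowest level of the 4 galectin family genes in 3 of 3 rats, and Anxa4 the lowest of the 6 annexins in 3 of 3. Each of 8 neighbour pairs in the order of mean FPKM was compared within rats as a difference of log2(FPKM + 1). In 4 pairs all 3 rats had the same sign: Lgals1 over Lgals3 by 0.66 ± 0.30 (SD, n = 3), Lgals3bp over Lgals9 by 2.25 ± 0.90, Anxa5 over Anxa6 by 0.54 ± 0.43 and Anxa1 over Anxa4 by 0.79 ± 0.24. Their two-sided exact sign-flip permutation p was 0.25, the smallest that 3 rats can give, and 0.5 after Benjamini-Hochberg adjustment over 8 pairs. No pair could therefore pass a threshold of 0.05.

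The other 4 neighbour pairs changed order between rats. Lgals3 had a higher mean FPKM than Lgals3bp through rat 35 alone, and the within-rat difference was -1.31, 0.85 and -0.12 (mean -0.19 ± 1.08, SD, n = 3, exact permutation p = 0.75). Anxa2 exceeded Anxa3 in rats 35 and 70 and lay below it in rat 19 (-0.14, 0.73 and 0.64). Anxa3 exceeded Anxa5 in rats 19 and 35 and lay below it in rat 70 (0.197, 0.17 and -0.67). Anxa6 exceeded Anxa1 in rats 19 and 70 but not in rat 35 (0.22, -0.29 and 1.09). Of the 6 annexins followed, Anxa3 was highest in rat 19, Anxa2 in rat 35 and Anxa5 in rat 70. In rat 70 Anxa11, not among the 6, was higher still, at 59.96 FPKM beside 51.4 for Anxa5.

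The remaining genes of both families fell into silent and expressed ones. Of 7 other galectin genes, 5 had a mean under 1 FPKM: Lgals2, Lgals4, Lgals5, Lgals7 and Lgals12, none above 0.67 in any rat. Lgals2 lies 75571 bp from Lgals1 on chromosome 7 and was at 0.211 in rat 19 and listed at 0 in the others. The expressed ones were Lgals8, which encodes a galectin known for marking damaged vesicles (11.7, 18.2 and 11.4 FPKM; 13.8 ± 3.82, SD, n = 3), and Lgalsl, which encodes a galectin-related protein (23.8, 10.1 and 30.5; 21.5 ± 10.4, SD, n = 3). Lgalsl was lowest in rat 35, 3.01-fold under rat 70, the reverse of Lgals1 and Lgals3.

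Of 6 other annexin genes, Anxa9, Anxa10 and Anxa13 stayed under 0.1 FPKM in every rat and Anxa8 was low (1.57, 1.32 and 0.614). Anxa7, an annexin found in most cell types, was at 39.0, 56.2 and 26.4 FPKM (40.5 ± 14.9, SD, n = 3) and was highest in rat 35 with a smaller step than Anxa1 to Anxa6, 1.44-fold over rat 19. Anxa11, linked to the transport of RNA granules in neurons, was at 52.3, 51.5 and 59.96 FPKM (54.6 ± 4.69, SD, n = 3). Its range was 0.22 (log2), and 6.70% of genes had a smaller one. So the highest and lowest rat of this annexin differed 1.17-fold over the same 3 libraries in which those of Anxa2 differed 6.46-fold.

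Summed over the 10 galectin genes of the tables, without Lgals3bp, the level was 216, 1073 and 162 FPKM. Lgals1 and Lgals3 made up 45.1% and 22.5% of it in rat 19, 57.0% and 38.2% in rat 35, and 36.8% and 27.6% in rat 70. The share of Lgals9 was 15.5%, 2.10% and 9.32%, and that of Lgalsl went from 0.945% in rat 35 to 18.8% in rat 70. In rat 35 the galectin transcripts were thus almost wholly those of Lgals1 and Lgals3. The 12 annexin genes summed to 457, 1140 and 307 FPKM, and no gene held more than 28.7% (Anxa2 in rat 35). Anxa11 held 11.4%, 4.51% and 19.5%, and Anxa2 held 18.9%, 28.7% and 16.5%.

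**Figure D3:**
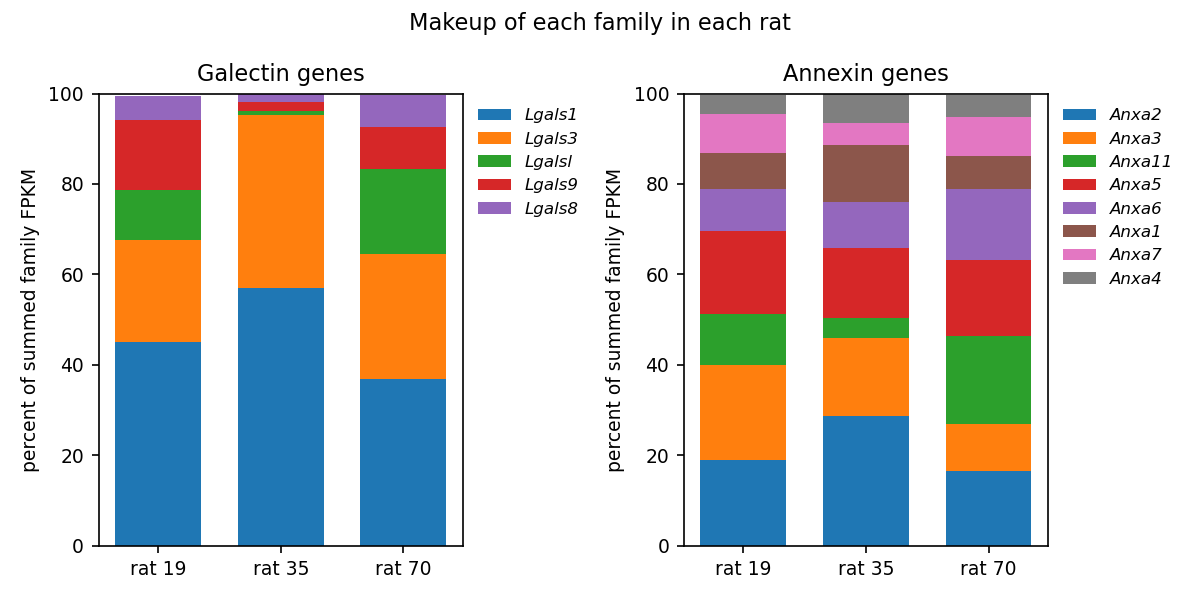
Stacked bars give the percent of the summed FPKM of the galectin genes (left) and the annexin genes (right) in each rat, for genes holding 1% or more in any rat. Lgals1 and Lgals3 fill most of the galectin bar of rat 35, while the annexin bars are shared among 8 genes in each rat.

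Genes that work with galectins (receptors, bound glycoproteins, glycan enzymes and autophagy factors) were also mostly highest in rat 35. Of 12 listed genes, 10 had a mean of 1 FPKM or more, 8 of these were highest in rat 35 (45.4% of all genes) and 6 were over 2-fold apart on the log2(FPKM + 1) scale (42.5%). By FPKM itself, Mertk was a further one, at 2.01-fold. Trem2, a lipid receptor of microglia reported to bind galectin-3, was at 58.4, 229 and 27.7 FPKM (105 ± 109, SD, n = 3). Havcr2, the galectin-9 receptor gene, was at 10.8, 27.7 and 2.89 (13.8 ± 12.7, SD, n = 3), so that its ratio to Lgals9 was 0.323, 1.23 and 0.191. The receptor gene exceeded the ligand gene in rat 35 only.

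Among the glycoproteins that galectins bind, Itgb1, an integrin subunit, was at 67.2, 169.6 and 55.6 FPKM, and Cd44, a hyaluronan receptor, at 23.8, 35.3 and 7.44. Lamp2 and Lamp1, sugar-rich proteins of the lysosomal membrane, were at 116, 278 and 119 and at 329.7, 539.6 and 294, all highest in rat 35. Mertk, a receptor for the uptake of dying cells, was at 16.8, 33.8 and 19.3. The glycan enzymes did not share an order: Mgat5, which makes the branched sugar chains that galectins prefer, was highest in rat 70 (5.54, 9.03 and 13.9), and St6gal1, whose sialic acid caps block galectin binding, was highest in rat 35 (3.38, 6.61 and 4.48). Trim16, a ubiquitin ligase that acts with galectin-3 on damaged lysosomes, was at 1.47, 1.63 and 2.10. Lag3 was under 1 FPKM in every rat and Calcoco2 was listed at 0.

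Of 12 annexin partner genes, 8 had a mean of 1 FPKM or more, 7 of them were highest in rat 35 (45.4% of all genes), 8 were lowest in rat 70 (44.2%) and 7 were over 2-fold apart on the log2(FPKM + 1) scale (42.5%). S100a11, whose protein binds annexin A1, was at 59.3, 519 and 53.9 FPKM (211 ± 267, SD, n = 3), and its ratio to Anxa1 was 1.62, 3.62 and 2.43. S100a10, the partner of annexin A2, was at 105.2, 183 and 69.7 (119 ± 57.8, SD, n = 3). Its ratio to Anxa2 was 1.22, 0.559 and 1.38, so the partner gene had the higher level in rats 19 and 70 and the lower one in rat 35. S100a6 was at 41.3, 49.9 and 19.1.

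In the plasminogen system around annexin A2, Plat, the tissue plasminogen activator gene, was at 51.8, 75.1 and 45.2 FPKM, a 1.66-fold range, Plgrkt, a plasminogen receptor gene, at 14.2, 14.0 and 5.23, a 2.72-fold range with rat 70 lowest, and Plg itself stayed under 0.25 in every rat. Ahnak, a large scaffold that binds the complex of annexin A2 and S100a10, was at 5.64, 16.6 and 3.50. Dysf, the membrane repair protein dysferlin, was at 1.19, 4.39 and 1.08, and Pla2g4a, the phospholipase that releases arachidonic acid, at 4.41, 13.8 and 3.78. Of the receptor genes of annexin A1, Fpr2 was at 0.304, 0.115 and 0 FPKM and Fpr3 at 0.181, 0.0428 and 0.22. Fpr1 was listed at 0 in all rats, which can be a failed estimate, as Col1a2 was also listed at 0 in all rats, while Col1a1 was at 72.8, 754 and 80.6.

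**Figure D4:**
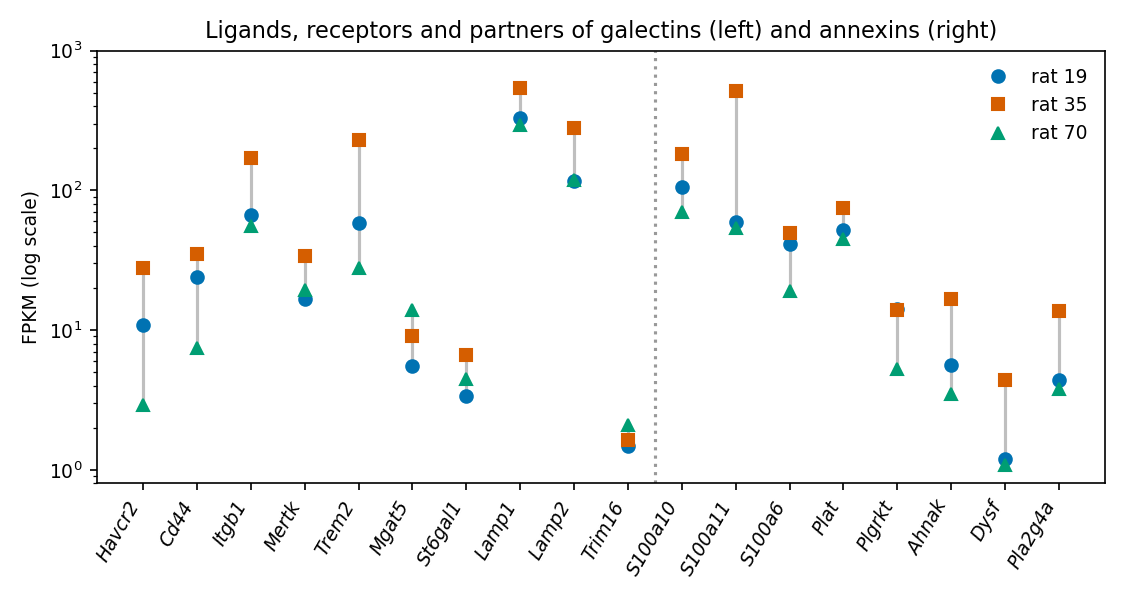
FPKM (log axis) in rats 19 (circles), 35 (squares) and 70 (triangles) of the 10 galectin partner genes and the 8 annexin partner genes with a mean of 1 FPKM or more. S100a11 has the widest spread, from 53.9 to 519, and Mgat5 and Trim16 are highest in rat 70.

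The 10 genes were also set against the microglia and macrophage list and the fibroblast list, as ratios to the geometric mean of each list within a rat. Both lists were highest in rat 35. The endothelial list and the neutrophil and lymphocyte list were highest there too, and no ratios to these were taken. The list means themselves were 73.3, 215 and 46.7 FPKM for 14 microglia and macrophage genes and 42.7, 261 and 30.9 for 9 fibroblast genes. Divided by the former, 9 of 10 genes had a smaller range over the rats than their FPKM, and 7 of 10 stayed within 2-fold. The same counts over all genes were not computed. Dividing by a list that is highest in rat 35 lowers that rat relative to the others for any gene. These counts are therefore no result particular to the 10 genes. Anxa4, Anxa5, Anxa2 and Anxa1 were the steadiest, with ranges of 1.27-fold, 1.40-fold, 1.40-fold and 1.40-fold. Lgals1 (1.33, 2.84 and 1.28) and Lgals3 (0.661, 1.90 and 0.957) remained highest in rat 35, as did Anxa1, Anxa2 and Anxa4, while Lgals9, Anxa5 and Anxa6 were lowest there.

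Divided by the fibroblast list, Lgals1 was steadiest (2.28, 2.34 and 1.93, a 1.21-fold range), followed by Lgals3 (1.13, 1.57 and 1.45). After this division 8 of 10 genes were lowest in rat 35, and the share of all genes lowest there was not computed. For Lgals9 the range over the rats widened with both lists. Its ratio to microglia and macrophage genes was 0.456, 0.104 and 0.323, a 4.37-fold range. Its ratio to fibroblast genes was 0.783, 0.0861 and 0.488, a 9.09-fold range, and both were wider than the 2.22-fold range of its FPKM. Anxa6 also had a wider range after division by the fibroblast list, 3.50-fold beside 2.73-fold by FPKM. Both lists were highest in the same rat, so these ratios describe the libraries and do not assign a gene to a cell type.

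**Figure D5:**
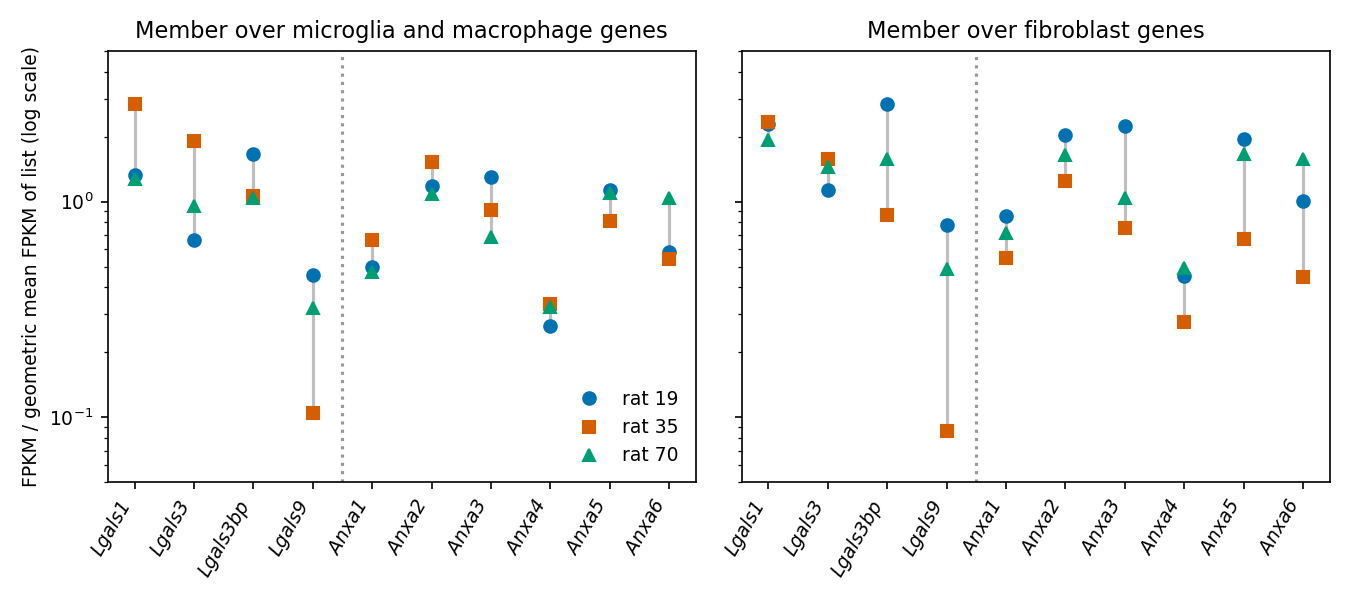
FPKM of each galectin family gene and annexin divided by the geometric mean FPKM of 14 microglia and macrophage genes (left) or 9 fibroblast genes (right) in the same rat, on a log axis, for rats 19 (circles), 35 (squares) and 70 (triangles). Points lie close together for Anxa1, Anxa2 and Anxa4 on the left and for Lgals1 and Lgals3 on the right, and Lgals9 of rat 35 lies lowest in both.

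Genes with the profile most like the member with the largest SD of log2(FPKM + 1) in each family (Lgals3, 1.797 beside 1.76 for Lgals1, and Anxa2, 1.374 beside 1.367 for Anxa1) were found among 9707 named genes with a mean of 5 FPKM or more, by the root mean square difference of centred log2(FPKM + 1) over 3 rats. For Lgals3 these were S100a11 (0.032), Hk3, a hexokinase gene (0.037), Mmp14, a membrane-bound matrix metalloproteinase gene (0.076), Slc37a2, a sugar phosphate carrier gene (0.10), and Bgn, which encodes the matrix proteoglycan biglycan (0.11). Bgn was at 127.9, 906 and 118 FPKM and Mmp14 at 24.5, 185.8 and 21.6. Hk3 was at 3.04, 34.6 and 2.77 and Slc37a2 at 2.23, 29.7 and 1.91. In these 2 low genes the added 1 shrinks the steps, and in FPKM they differed more between rats than Lgals3 did. Only 3 genes lay within 0.1 of Lgals3 and 31 within 0.2.

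For Anxa2 the nearest were Kdelr3, a receptor gene that returns proteins to the endoplasmic reticulum (0.003), Rpl10l (0.016), Laptm5, a lysosomal membrane gene of blood cells (0.024), Csf2ra, a receptor subunit for the growth factor GM-CSF (0.026), and Glipr1 (0.027). Laptm5 was at 49.1, 189.6 and 27.8 FPKM. Kdelr3 was at 4.91, 21.0 and 2.48 FPKM and Rpl10l at 2.60, 12.3 and 1.07. At such low levels the added 1 shrinks the steps, so both differed more between rats in FPKM than Anxa2 did. Their small distances hold on the log2(FPKM + 1) scale only. The profile of Anxa2 was more common than that of Lgals3, with 44 genes within 0.1 and 169 within 0.2. Rpl10l is a near-identical copy of another ribosomal gene and its value is uncertain. A profile over 3 rats has few degrees of freedom, and likeness in it says nothing of shared function or control.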

How the data were processed

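RNA-seq of motor cortex from 3 rats was used as deposited, in 1 group, with SDs measuring only the spread between these animals. The p-values test only whether the mean within-rat difference between neighbouring genes departs from no difference. The deposited unit is FPKM: per the labels, the authors took fragment counts per gene, applied a normalization that no source used here describes, and ran a Perl script. The submitters' processing notes list HISAT2 2.0.4, StringTie 1.3.0 and Rnor 6.0 and give no role for any. Coordinates of genes are those of the files.

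The scale was log2(FPKM + 1), on which low genes differ less than they should, for the 14134 genes with a mean of 1 FPKM or more (Python 3.11.15, numpy 2.4.6, pandas 2.3.3, scipy 1.17.1). Fold changes and ratios in the text are ratios of FPKM unless the log2 scale is named. Depth came from genes spanning 1500 bp or less, where FPKM times span falls in steps of whole fragments (93.2%, 93.6% and 93.1% of those spanning 400 bp or less were within 0.03 of a whole number). The fragments of a gene are those at the shortest length, up to 20000 bp, that gave whole fragments within 0.005 in all rats; for the 10 genes they ranged from 423 to 12986, a counting error of at most 4.86% (CV). Intervals are exact Poisson intervals at 95%; reads without molecular identifiers are not independent molecules.

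With 1 group there was no test between rats. Neighbours in the order of levels were compared by flipping the signs of the within-rat differences in all ways (exact permutation, two-sided). Named genes are the 10 members, all genes of the partner and family lists, and the 5 genes nearest in profile to the member with the largest SD of log2(FPKM + 1) in each family, without clone-based and locus names. The members and lists were chosen with earlier results of these data known, and the ratios to marker lists and of gene pairs, and the promoter motifs, after the values were seen. As alternatives, a pseudocount of 0.1, FPKM minima of 5 or none, 2 rescalings, leaving out mitochondrial genes, and leaving out each rat were run. Lgals1, Lgals9 and Anxa2 have 1, 2 and 1 pseudogenes in the RefSeq table, and fragments shared with these could be split or lost. Exact zeros can be failed estimates.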

Additional observations from a re-analysis of the deposited data

How the results depend on the processing

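Of 89 values recomputed under the alternatives, 3 moved, 3 reversed and 83 did neither. A count or share was taken as moved when it changed over 1.5 times, a median range when it changed by more than the SD over rats of the family's median deviation (1.35 for the galectin family and 1.17 for the annexins), and a difference between neighbours only when its sign changed, whatever its size. The 3 that moved and the 3 that reversed all came from leaving out 1 rat. The number of the 10 genes over 2-fold apart on the log2(FPKM + 1) scale was 9, 3 and 8 without rats 19, 35 and 70, the median range over the galectin family was 2.69, 0.90 and 1.77 (log2), and that over the annexins 2.38, 0.69 and 1.64. Of all genes, 19.9% were over 2-fold higher in rat 35 than in rat 70, 11.7% in rat 35 than in rat 19 and 6.11% in rat 19 than in rat 70. The number of the 10 genes highest in rat 35 was 10 without rat 19 and 9 without rat 70. The share of all genes highest in rat 35 with 1 rat left out was not computed, so these 2 counts have no share beside them. Lgals3 minus Lgals3bp went from -0.19 to 0.36 (log2) without rat 19 and to -0.71 without rat 35, Anxa3 minus Anxa5 from -0.10 to 0.18 without rat 70 and to -0.25 without rat 19, and Anxa6 minus Anxa1 from 0.34 to -0.034 without rat 70 and to 0.66 without rat 35. With fewer rats each value rests on 2 animals, and the smallest exact permutation p is 0.5. With a pseudocount of 0.1, a common sum of 1000000, scaling by median ratios or no mitochondrial genes, 9 of 10 genes stayed highest in rat 35 and 9 or 10 were over 2-fold apart. These scalings moved the median gene unequally between rats by 0.16, 0.14 and 0.23 (log2). Without mitochondrial genes the median range was 2.44 over the galectin family and 2.15 over the annexins (log2). The share of all genes highest in rat 35 was 41.3% with no minimum, 45.3% at a mean of 5 FPKM or more and 42.1% by the median of ratios, and that over 2-fold was 32.8%, 40.9% and 41.6%. No paired analysis was possible because the rats form 1 group and have no other group to be paired with; the differences between neighbouring genes were taken within each rat. Counting error was small beside the gaps between rats for most of the 10 genes, but not for Lgals3 in rats 19 and 70.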
